A study of Mus musculus with 41 samples.

Results

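Collagen genes were followed in 41 mouse melanomas after withdrawal of the drug that keeps their BRAF oncogene on. A gene was a member when its symbol was Col, a number, the letter a and a number, and when at least 1 probe set (the set of short probes that measures a transcript on an Affymetrix array) named that gene alone. Each gene was represented by its brightest probe set on average. This gave 42 collagen genes, covered by 82 probe sets, of 18194 genes in all. Of the 42, 36 lay above the 40th percentile of their array in at least 3 arrays and were tested with 14319 genes in total. The 6 that were too dim to test were Col4a3, Col6a5, Col9a2, Col11a2, Col19a1 and Col24a1.

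Collagens are extracellular proteins of 3 chains wound into a triple helix. Fibrillar collagens (types I, II, III, V, XI, XXIV and XXVII) build the tensile fibres of connective tissue, and type IV collagen forms the sheet-like network of basement membranes under epithelia and around vessels. FACIT collagens attach to the surface of fibrils, type VI makes beaded filaments, types VIII and X make short-chain networks, type VII anchors skin epithelium to the dermis, and the transmembrane types sit in cell membranes. In tumours collagens are known mainly as products of fibroblasts, although endothelial, Schwann, epithelial and tumour cells make particular chains. By class, 9 of 11 fibrillar genes were tested, 5 of 6 basement membrane genes, and 22 of 25 other genes.

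All tumours came from iBIP mice, in which melanomas are driven by BRAF under control of doxycycline. The labels give no further allele, promoter, age or sex. At day 0 the drug had not been withdrawn (4 tumours). It had been left out of the drinking water for 1 day in 7 tumours, 2 days in 5, 3 days in 6, 6 days in 4, 9 days in 3, 16 days in 1, 29 days in 1, and 63, 77, 90, 121, 136 or 163 days in 10, which are called the late tumours. The tumours of days 16 and 29, with no replicate, entered no comparison. The labels do not say whether tumours shared a mouse, so p-values measure the spread between these samples, which may be technical. They also do not say whether the late tumours are remnants or had regrown. RNA was from pieces of whole tumour with the skin trimmed off, and in such bulk samples fewer cells of a type and less RNA per cell cannot be told apart. Of 9 melanocytic marker genes, Tyr, which makes the enzyme of the first step of pigment synthesis, was the 1 that did not pass the filter, while 12 of 13 fibroblast markers passed.

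Values below are log2 intensities, and the number of arrays limits their precision. A gene was called, and is said to have risen or fallen, at an adjusted p under 0.05 (limma's moderated test with Benjamini-Hochberg adjustment over all genes tested). Intensities of different probe sets do not rank genes by transcript number. Technical features of the arrays moved with the days. Levels of spike-in controls, RNAs added by the laboratory, separate the arrays into 3 sets. Days 2, 3 and 6 lie wholly in set 1, with 1 tumour of day 1. Days 0, 9, 16 and 29 lie wholly in set 3, with 2 late tumours, and set 2 is made of 6 day 1 and 8 late tumours. As a sign of RNA breakdown, the Gapdh gap is the 3′ minus the 5′ log2 signal of that transcript. It was 0.28 to 0.58 at day 0 and 0.03 to 1.04 at day 1, but exceeded 2 in 8 of 10 late tumours and in 1 of 3 at day 9. No set holds both day 0 and any of days 1 to 6. A fit with the set as a block thus links them only through tumours of other days. Late against day 0, that fit compares day 0 with only the 2 late tumours of set 3 (days 136 and 163). A fit on set 3 alone gives the same difference, so the 2 fits are not separate checks. Both tumours have a Gapdh gap over 2 (2.41 and 4.41). The day 1 difference in the block fit also rests on these 2 tumours matching the late tumours of set 2. Days 2, 3 and 6 are joined to the rest only through the 1 day 1 tumour of set 1.

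Promoter sequences show what lies before the genes whose values are described next. RefSeq (GRCm38.p6) windows of 300 bases, 250 before to 50 after a start site, were found for 33 of the 42 collagen genes. The 200 bases up to the start site are given, 5′ to 3′ on the gene's strand, for Col8a1 and Col8a2, whose products share type VIII networks and whose late differences from day 0 had opposite signs; for Col6a1 and Col6a2, neighbours on chromosome 10 that varied together; for Col7a1, which fell; and for Col1a2 and Col3a1, which were called in no comparison. Capitals mark matches on either strand to short promoter motifs. The TATA box was looked for with the letters TATAAA. The CCAAT box was looked for by the letters of its name, and the binding element of the factor Sp1, called the GC box, with the letters GGGCGG. The element bound by the factor AP-1 was looked for with the letters TGANTCA, where N is any base. Overlapping matches run together.
Col8a1, chr16:57754738-57754937, minus strand: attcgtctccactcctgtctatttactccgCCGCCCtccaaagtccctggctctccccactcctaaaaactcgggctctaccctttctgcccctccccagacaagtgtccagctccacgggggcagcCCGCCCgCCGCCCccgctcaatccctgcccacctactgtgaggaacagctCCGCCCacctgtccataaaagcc
Col8a2, chr4:126286594-126286793, plus strand: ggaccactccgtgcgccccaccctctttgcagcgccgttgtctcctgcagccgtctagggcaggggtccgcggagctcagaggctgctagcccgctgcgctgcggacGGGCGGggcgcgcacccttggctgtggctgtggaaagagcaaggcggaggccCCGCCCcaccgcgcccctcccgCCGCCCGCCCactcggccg
Col6a1, chr10:76726045-76726244, minus strand: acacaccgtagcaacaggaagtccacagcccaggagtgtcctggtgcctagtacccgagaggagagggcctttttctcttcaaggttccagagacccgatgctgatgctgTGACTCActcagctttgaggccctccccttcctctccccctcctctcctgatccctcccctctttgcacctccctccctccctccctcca
Col6a2, chr10:76623631-76623830, minus strand: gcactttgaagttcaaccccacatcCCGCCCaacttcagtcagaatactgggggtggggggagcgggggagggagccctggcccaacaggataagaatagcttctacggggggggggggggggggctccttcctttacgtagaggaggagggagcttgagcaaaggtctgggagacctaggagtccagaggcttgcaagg
Col7a1, chr9:108953386-108953585, plus strand: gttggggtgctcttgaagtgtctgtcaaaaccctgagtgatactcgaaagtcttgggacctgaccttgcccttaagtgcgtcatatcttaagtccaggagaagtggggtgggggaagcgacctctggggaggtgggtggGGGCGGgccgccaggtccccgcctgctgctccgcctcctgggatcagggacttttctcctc
Col1a2, chr6:4505418-4505617, plus strand: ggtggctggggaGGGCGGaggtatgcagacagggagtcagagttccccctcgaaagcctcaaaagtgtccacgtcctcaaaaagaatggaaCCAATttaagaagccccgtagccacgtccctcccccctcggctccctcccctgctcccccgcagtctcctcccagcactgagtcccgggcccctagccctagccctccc
Col3a1, chr1:45311338-45311537, plus strand: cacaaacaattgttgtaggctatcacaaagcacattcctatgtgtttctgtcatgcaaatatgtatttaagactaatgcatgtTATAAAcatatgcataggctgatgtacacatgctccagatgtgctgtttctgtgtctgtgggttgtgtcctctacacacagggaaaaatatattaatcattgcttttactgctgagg
Col8a1 and Col8a2 each hold 4 GC boxes in these bases, Col7a1 and Col6a2 hold 1 each, Col1a2 holds 1 GC box and 1 CCAAT box, Col3a1 holds 1 TATA box, and Col6a1 holds 1 AP-1 match. Over the same 200 bases before each start, 21 of 36 collagen windows (some genes have several starts) hold a GC box against 31% of 32851 windows of all genes, 10 hold a CCAAT box against 29.3%, 4 a TATA box against 9.96%, and 1 the AP-1 letters against 5.48%. These are matches of letters and show no binding. Windows that lie within the span of a RefSeq gene, such as that of Col20a1, are not printed.

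Calls of collagen genes are given beside the share of all genes called in the same comparison and direction. At day 1, 2 of the 36 tested collagens rose (7.57% of all genes tested rose) and 3 fell (6.25% fell). At day 2 none rose (6.74% of all genes) and 9 fell (8.35%); by limma at an unadjusted p under 0.05, 1 was higher and 13 were lower. At day 3, 1 rose (9.74%) and 5 fell (11.6%), and at day 6, 1 rose (5.74%) and 1 fell (6.46%). At day 9, 1 rose (2.65%) and none fell (1.91%), with 1 lower at an unadjusted p under 0.05 by limma. The late tumours had 4 collagens higher than day 0 (26.3%) and 11 lower (20.1%). Of the 4, Col26a1 passed the filter on dim genes only with the late tumours counted, and its call is given as a description. Against day 1 the late tumours had 5 collagens higher (28.9%) and 9 lower (22.8%). The 5 again include Col26a1, whose call is likewise only a description and was lost with some single tumours left out. Over the 6 comparisons with day 0 together, 19 of 36 collagens varied by limma's F test, where 60.7% of all genes did. In either direction, day 1 had 5 collagens called (13.8% of all genes), day 2 had 9 (15.1%), day 3 had 6 (21.3%), day 6 had 2 (12.2%) and day 9 had 1 (4.56%). There were 15 late (46.4%) and 14 late against day 1 (51.7%). These comparisons share the 4 day 0 tumours. Where the set was a block in the fit, 3 collagens were called at day 1 (11.5% of all genes in that fit). None was called at days 2, 3 and 6, where only 0.552%, 0.936% and 0.489% of all genes were. At each of these days 5 collagens passed by limma at an unadjusted p under 0.05. Every call given below for days 2, 3 and 6 is thus lost in that fit, in which few genes of any kind were called.

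A plainer count is of collagens whose tumours do not overlap day 0 at all. At day 1, 1 collagen had every tumour above day 0 (3.97% of all genes tested) and 2 every tumour below (4.37%). At day 2 none lay wholly above (6.26%) and 5 wholly below (10.1%), at day 3 1 above (7.86%) and 2 below (10.5%), at day 6 2 above (10.5%) and 2 below (12.4%), and at day 9 1 above (9.25%) and 1 below (8.02%). Late, 1 lay wholly above day 0 (10.1%), which was Col20a1, and 4 wholly below (7.67%), which were Col6a3, Col7a1, Col8a1 and Col11a1. Against day 1, 1 lay wholly above (4.50%), which was Col4a6, and none wholly below (3.72%), where limma had 11 collagens lower at an unadjusted p under 0.05.

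**Figure D1:**
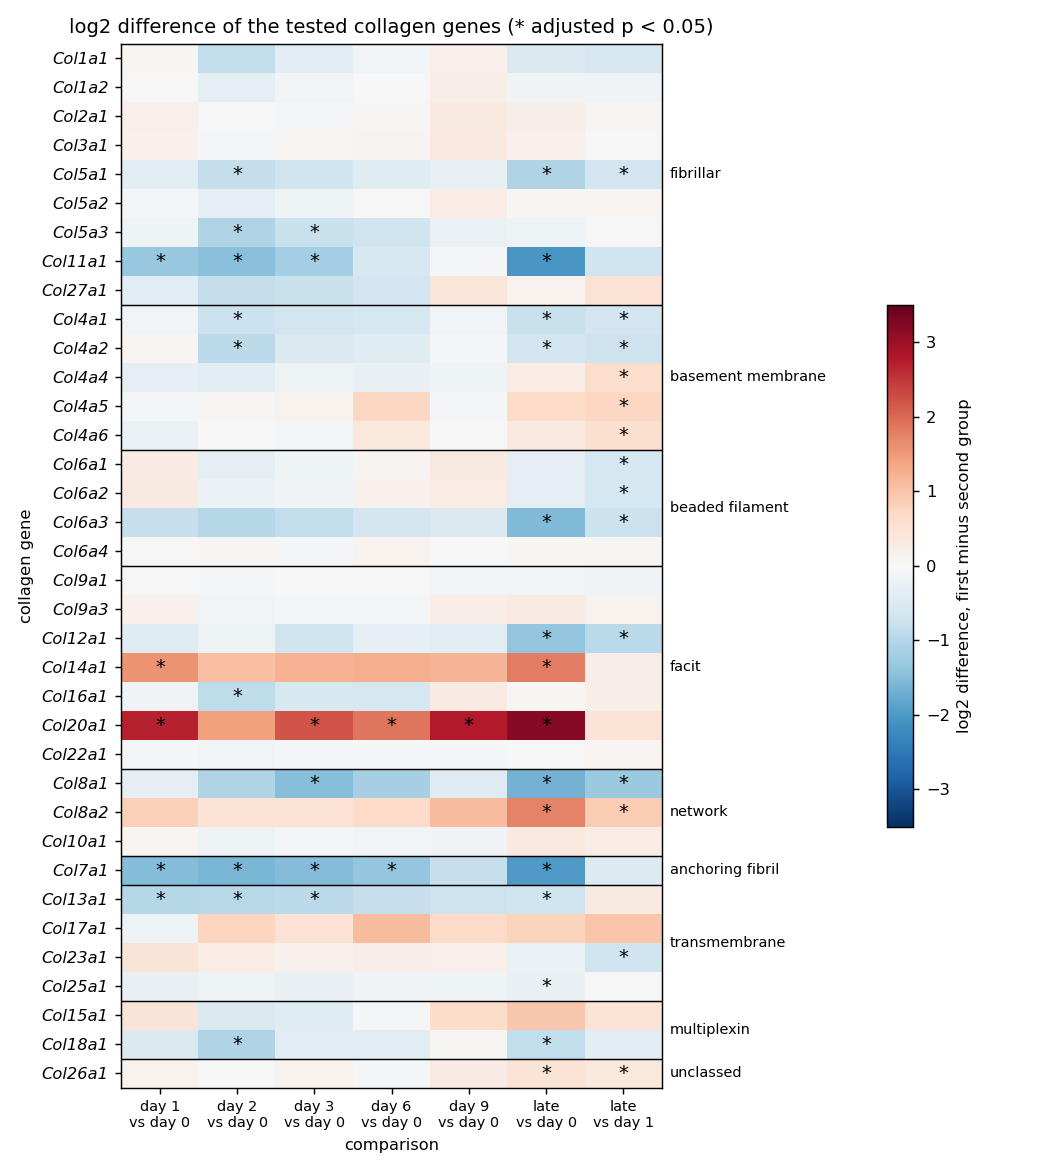
Each cell is the log2 difference of a tested collagen gene (rows, grouped by class) in 1 of 7 comparisons (columns), red where the first group was higher, and a star marks an adjusted p under 0.05. Col20a1 is red in all 6 comparisons with day 0, Col7a1 is blue in all 7 and starred in 5, and Col1a1, Col1a2 and Col3a1 carry no star with all tumours kept.

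With all tumours kept, Col1a1, Col1a2 and Col3a1 were called in no comparison, but for Col1a1 this rests on 1 tumour. Col1a1 and Col1a2 encode the chains of type I collagen, the bulk of fibrous connective tissue, and Col3a1 the chain of type III, its partner in skin and vessels. Col1a1 was 13.22, 12.62, 12.72 and 11.31 in the day 0 tumours. It was 12.06 to 12.95 (median 12.53) at day 1, 12.29, 11.27, 10.92, 11.92 and 11.69 at day 2, and 11.70 to 12.72 (median 12.01) at day 3. The day 2 values sit low, but they overlap day 0, whose own values span almost 2 log2 units. Col1a1 was 11.63, 13.53, 12.33 and 11.97 at day 6, 13.29, 12.63 and 11.99 at day 9, 12.37 at day 16 and 12.53 at day 29. In the late tumours it was 10.48 to 12.66 (median 12.06). The day 2 difference of Col1a1 was -0.85 (SE 0.38, 95% interval -1.63 to -0.07, adjusted p = 0.13) and the late difference -0.49 (SE 0.34, interval -1.18 to 0.19, adjusted p = 0.231). Neither passed the test. Without the fourth day 0 tumour both did, at -1.23 (adjusted p = 0.0431) and -0.88 (adjusted p = 0.043). Without that tumour Col1a2 was -0.47 at day 2 (adjusted p = 0.0796) and -0.26 late (adjusted p = 0.18), and Col3a1 -0.20 (adjusted p = 0.43) and 0.01 (adjusted p = 0.964).

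Col3a1 was narrower in every group. It was 13.71, 13.65, 13.54 and 13.05 at day 0, 13.49 to 13.74 (median 13.71) at day 1, and 13.69, 13.25, 13.09, 13.61 and 13.50 at day 2. At day 3 it was 13.44 to 13.69 (median 13.55), at day 6 13.60, 13.96, 13.53 and 13.29, at day 9 13.98, 13.57 and 13.92, at day 16 13.80 and at day 29 13.82. The late tumours ran from 12.95 to 13.92 (median 13.73) and overlapped every other group. The late difference was 0.16 (SE 0.13, interval -0.12 to 0.43, adjusted p = 0.346). Col1a2 differed by -0.11 late (interval -0.41 to 0.19, adjusted p = 0.554) and Col5a2, a type V chain that joins type I fibrils, by 0.03 (interval -0.27 to 0.34, adjusted p = 0.87). Probe sets disagreed for some of these genes. Late against day 0, another probe set of Col1a2 rose by 0.91 (adjusted p = 0.00449) and another of Col5a2 rose by 0.65 (adjusted p = 0.0191), while the second of Col3a1 was 0.65 higher without passing (adjusted p = 0.0511).

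**Figure D2:**
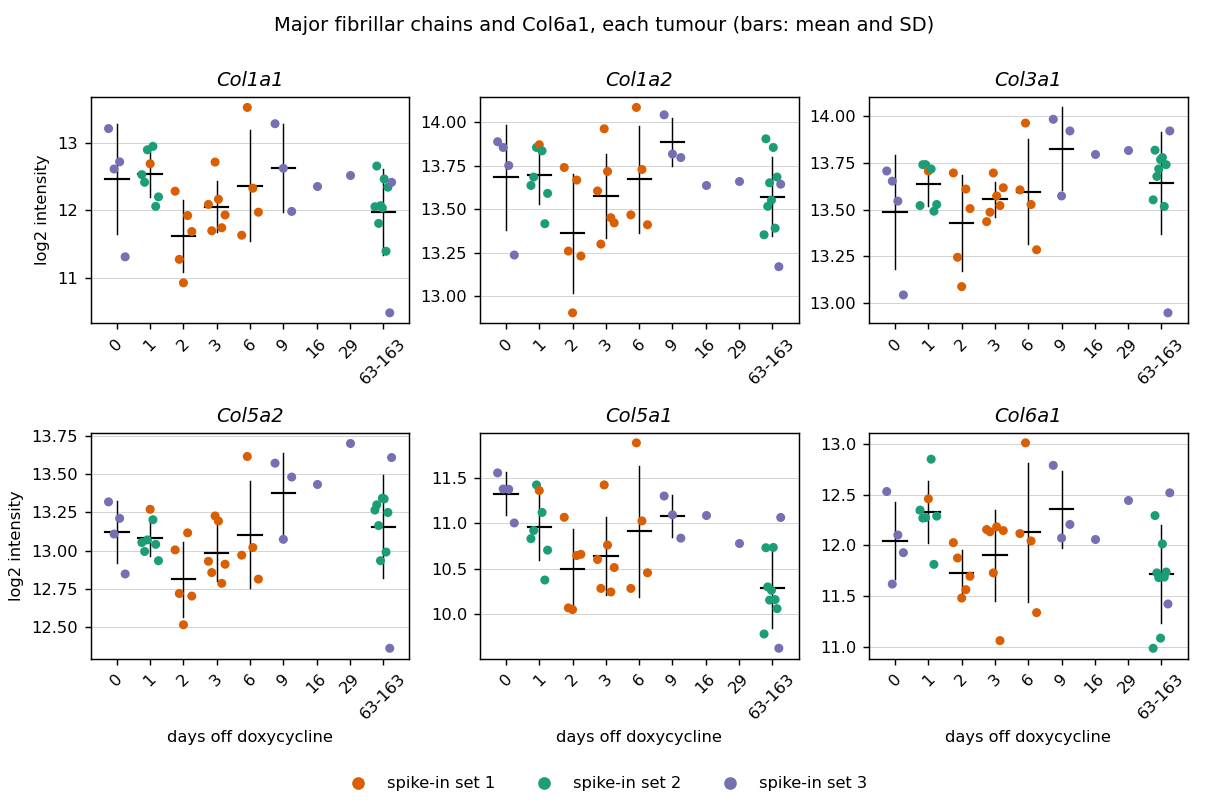
Log2 intensity of Col1a1, Col1a2, Col3a1, Col5a2, Col5a1 and Col6a1 in each tumour (points, coloured by spike-in set) against days off doxycycline, with the mean and SD of each group of more than 1. The late values of Col1a1 (10.48 to 12.66) and Col3a1 (12.95 to 13.92) overlap those of day 0, while those of Col5a1 (9.62 to 11.06) lie mostly lower.

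The fibrillar genes that fell were Col5a1, Col5a3 and Col11a1, whose types V and XI nucleate fibrils and set their diameter. Col11a1, a type XI chain found in cartilage and in the stroma of many tumours, was 9.83, 8.06, 8.50 and 8.39 at day 0 and 6.74 to 8.20 (median 7.30) at day 1. At day 2 it was 7.58, 7.51, 6.66, 7.60 and 6.83, all below day 0. It was 7.06 to 8.18 (median 7.51) at day 3, 7.51, 9.45, 8.25 and 7.30 at day 6, and back within the day 0 range at day 9 with 9.52, 8.29 and 8.11. Single tumours at days 16 and 29 gave 6.58 and 6.997. The late tumours, at 4.72 to 7.38 (median 6.85), all lay below every day 0 tumour. Col11a1 fell by 1.34 at day 1 (SE 0.41, adjusted p = 0.0257), by 1.46 at day 2 (SE 0.44, adjusted p = 0.0214), by 1.18 at day 3 (SE 0.42, adjusted p = 0.0419) and by 2.02 late (SE 0.39, adjusted p = 7.15e-05), the last a 4.07-fold fall. Without the first day 0 tumour the day 1 difference was -0.96 (adjusted p = 0.155), and the day 2 and day 3 calls were lost as well, while the late call kept its side of the threshold in every alternative and with each tumour left out. It was 1.48 lower without the tumours of Gapdh gap over 2 (adjusted p = 0.0297), which leaves 2 late tumours.

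Col5a1, the chain that starts type I fibrils, fell by 0.83 at day 2 (SE 0.29, adjusted p = 0.0439; lost on leaving out each of 8 of the 9 tumours in turn) and by 1.04 late (SE 0.25, adjusted p = 0.00105), from a day 0 mean of 11.33 ± 0.23 (SD, n = 4) to 10.29 ± 0.45 (SD, n = 10). Within spike-in set 3 alone, with 2 late tumours, the late difference of -0.98 did not pass (adjusted p = 0.0877). Col5a3, the type V chain of fewer tissues, fell by 1.04 at day 2 (SE 0.29, adjusted p = 0.0143) and by 0.78 at day 3 (SE 0.28, adjusted p = 0.0442), and was -0.17 late (interval -0.69 to 0.35). Without the first day 0 tumour these were -0.83 (adjusted p = 0.0825) and -0.57 (adjusted p = 0.204). Col27a1, a fibrillar chain of cartilage, was 0.83 lower at day 2 without passing (adjusted p = 0.0815), and its second probe set, at 1.66 higher in the late tumours, differed from the kept one at 0.13. With the probe sets of each gene averaged, Col27a1 rose by 0.90 late against day 0 (adjusted p = 0.0138). Late against day 1 it then rose by 0.98 (adjusted p = 0.00155). Of the 9 fibrillar genes, 1 fell at day 1 (6.25% of all genes), 3 at day 2 (8.35%), 2 at day 3 (11.6%) and 2 late (20.1%). Their median differences were -0.04, -0.83, -0.41 and -0.11 beside 0.00, -0.02, -0.02 and 0.05 over all genes tested.

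The FACIT collagens held the largest rise of the family. Col20a1 encodes type XX collagen, a FACIT chain first described in skin, cornea and cartilage. It was 6.38, 7.26, 7.53 and 6.53 at day 0, and 8.67 to 10.71 (median 9.77) at day 1, so that every day 1 tumour lay above every day 0 tumour. At day 2 it was 8.01, 7.26, 8.05, 10.02 and 8.40, which overlaps day 0. It was 8.002 to 10.97 (median 9.04) at day 3, 8.93, 7.93, 9.26 and 9.04 at day 6, and 10.56, 8.70 and 9.82 at day 9, all above day 0. The late tumours ran from 8.99 to 10.93 (median 10.29), and the single tumours of days 16 and 29, at 11.27 and 11.39, were higher than every other tumour. Col20a1 rose by 2.70 at day 1 (SE 0.48, 6.52-fold, adjusted p = 4.84e-04), 2.21 at day 3 (SE 0.50, adjusted p = 0.00199), 1.87 at day 6 (SE 0.55, adjusted p = 0.0217), 2.77 at day 9 (SE 0.59, adjusted p = 0.00744) and 3.18 late (SE 0.46, 9.03-fold, adjusted p = 1.64e-06). The day 2 difference of 1.42 (SE 0.52, interval 0.37 to 2.48, adjusted p = 0.0577) missed the threshold. With the block it was 2.70 at day 1 (adjusted p = 0.0288) and 3.14 late (adjusted p = 0.00113). Within set 3 alone the same 2 late tumours gave 3.14 (adjusted p = 0.0157).

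The day 6 call was lost on leaving out each of 5 of the 8 tumours in turn. The other 3 probe sets of Col20a1 were 1.82 to 2.43 higher at day 1 and 2.48 to 2.82 higher late. Within set 3 alone the day 9 difference of 2.77 did not pass (adjusted p = 0.155), and without the day 9 tumour of Gapdh gap over 2 it was 2.71 (adjusted p = 0.0982). Of the 5 genes of the Schwann marker list, 4 rose late against day 0 (26.3% of all genes) and 0 fell (20.1%). By limma at an unadjusted p under 0.05 it was also 4 and 0. At days 1, 3, 6 and 9, 1, 3, 0 and 1 of the list rose (7.57%, 9.74%, 5.74% and 2.65%). At the same days 1, 1, 1 and 0 fell (6.25%, 11.6%, 6.46% and 1.91%). At an unadjusted p under 0.05 by limma, 2 were higher at day 6 and 1 was lower at day 9. Late against day 1 all 5 rose (28.9%). The mean over the list was 7.88 to 9.16 at day 0, 8.31 to 9.57 at day 1 and 9.37 to 10.65 late. Its part in the result was not tested. Late against day 1, Col20a1 differed by 0.47 (interval -0.30 to 1.24, adjusted p = 0.304).

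Col14a1, a FACIT chain of mature fibril bundles in skin and tendon, was 7.43, 7.83, 8.66 and 6.15 at day 0, 7.89 to 9.73 (median 9.30) at day 1 and 7.09 to 10.89 (median 9.75) late. It rose by 1.58 at day 1 (SE 0.55, adjusted p = 0.0498) and by 1.78 late (SE 0.52, adjusted p = 0.00529). The day 1 call rests on single tumours, being lost on leaving out each of 9 of the 11 tumours in turn, and with the block it was 0.35 (adjusted p = 0.833). The late difference was 0.86 with the block (adjusted p = 0.41) and 0.86 with the Gapdh gap as a covariate (adjusted p = 0.328). Col12a1, the FACIT chain of tension-bearing tissue, fell by 1.38 late (SE 0.45, adjusted p = 0.0131), but with the Gapdh gap as a covariate it was -0.59 (adjusted p = 0.454) and without tumours of gap over 2 it was -0.14 (adjusted p = 0.872). Col16a1, which links small fibrils in skin, fell by 0.88 at day 2 (SE 0.23, adjusted p = 0.0106) and was 0.07 late (interval -0.34 to 0.49). Col9a1, Col9a3 and Col22a1 were called in no comparison.

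**Figure D3:**
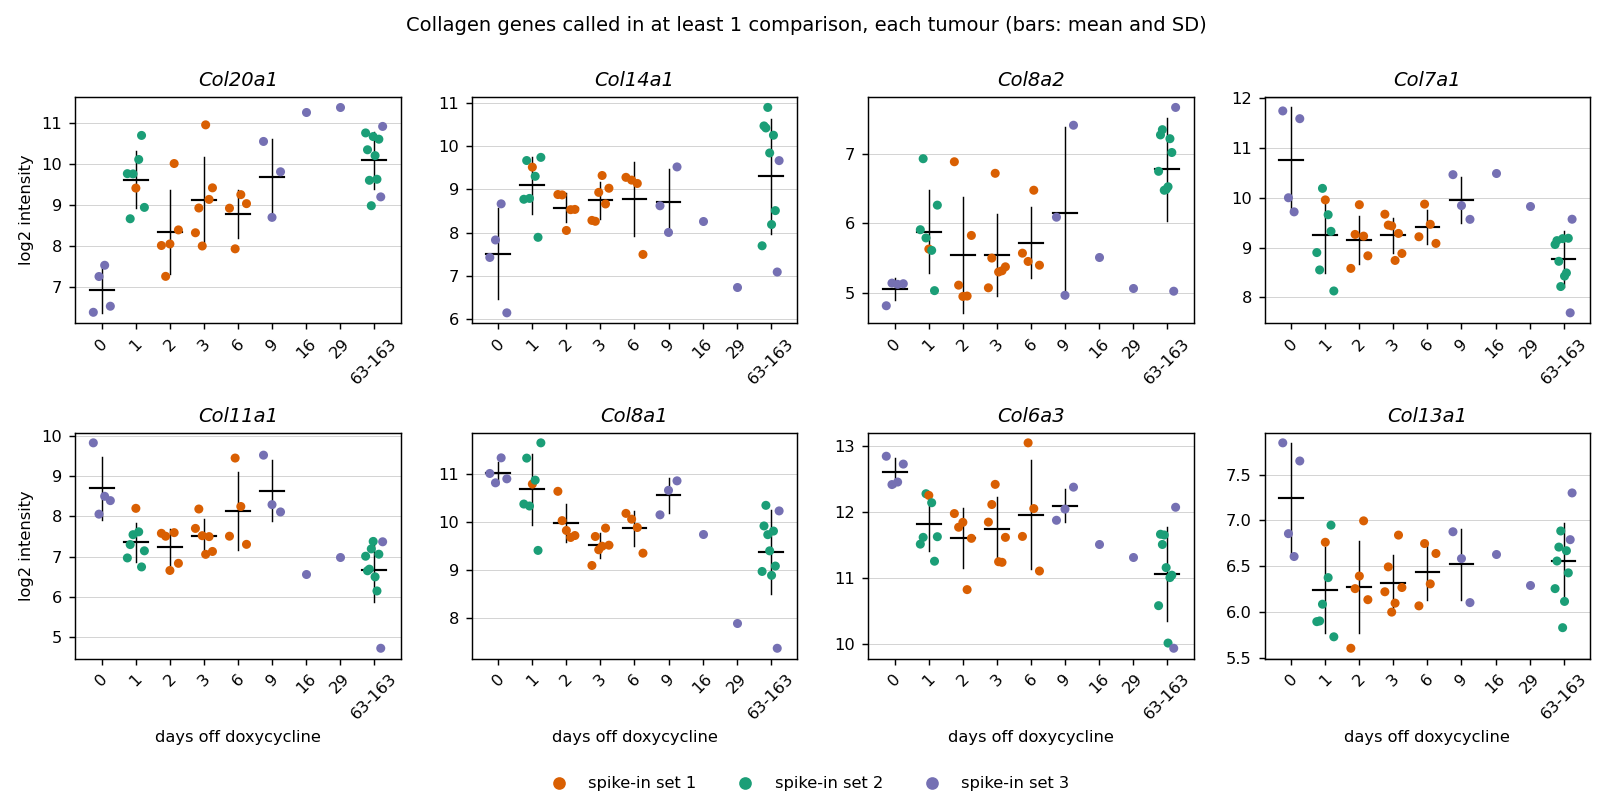
Log2 intensity of 8 collagen genes called in at least 1 comparison, in each tumour (points, coloured by spike-in set) against days off doxycycline, with the mean and SD of each group of more than 1. Col20a1 lies at 6.38 to 7.53 at day 0 and at 8.99 to 10.93 late, while Col11a1 lies at 8.06 to 9.83 at day 0 and 4.72 to 7.38 late, and Col7a1 at 9.72 to 11.74 and 7.69 to 9.57.

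The chains of the basement membrane split. Col4a1 and Col4a2 together form the type IV network of nearly all basement membranes, whereas Col4a3 to Col4a6 make the networks of kidney, lung, smooth muscle and skin. Col4a1 was 12.67, 11.40, 11.96 and 12.42 at day 0, 11.76 to 12.20 (median 11.99) at day 1, and 11.72, 11.07, 11.17, 11.74 and 11.10 at day 2. At day 3 it was 11.26 to 11.89 (median 11.41), at day 6 11.49, 11.96, 11.49 and 11.06, and at day 9 12.64, 11.48 and 11.90. It was 11.86 at day 16, 12.33 at day 29 and 10.59 to 11.86 (median 11.46) late, where it overlaps day 0 through the second day 0 tumour. Col4a1 fell by 0.75 at day 2 (SE 0.25, adjusted p = 0.0398) and by 0.77 late (SE 0.22, adjusted p = 0.00514), and Col4a2 by 0.91 at day 2 (SE 0.29, adjusted p = 0.0302) and by 0.66 late (SE 0.25, adjusted p = 0.0324). The day 2 falls were lost without the first day 0 tumour (-0.56, adjusted p = 0.179, and -0.62, adjusted p = 0.177). The late falls were lost with the block (-0.52, adjusted p = 0.238, and -0.25, adjusted p = 0.653) and with the Gapdh gap as a covariate (-0.40, adjusted p = 0.288, and -0.57, adjusted p = 0.211). Against day 1 the late tumours were lower by 0.66 for Col4a1 (SE 0.18, adjusted p = 0.00322) and by 0.74 for Col4a2 (SE 0.21, adjusted p = 0.00424).

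In that same comparison the chains of the other networks rose, Col4a4 by 0.62 (SE 0.15, adjusted p = 8.95e-04), Col4a5 by 0.71 (SE 0.28, adjusted p = 0.0351) and Col4a6 by 0.55 (SE 0.14, adjusted p = 0.00141). All 5 tested type IV chains were thus called late against day 1, 3 higher and 2 lower, where 51.7% of all genes were called. The Col4a5 call was lost on leaving out each of 9 of the 17 tumours in turn. Col4a4, Col4a5 and Col4a6 are dim, lying above the filter's percentile in 2, 3 and 0 of 7 day 1 tumours and in 6, 10 and 9 of 10 late ones. Within spike-in set 2 alone, which holds most of both groups, the 5 differences were -0.73 and -0.83 for Col4a1 and Col4a2 and 0.65, 0.87 and 0.62 for Col4a4, Col4a5 and Col4a6, each with an adjusted p under 0.05. The Gapdh gap differed between these groups, and with it as a covariate none of the 5 passed: Col4a1 was -0.31 (adjusted p = 0.368), Col4a2 -0.65 (adjusted p = 0.104), Col4a4 0.12 (adjusted p = 0.639), Col4a5 0.40 (adjusted p = 0.482) and Col4a6 0.36 (adjusted p = 0.158). Without the tumours of gap over 2, which leaves 2 late tumours, none of the 5 passed either. Against day 0, Col4a4 (0.27, interval -0.09 to 0.64), Col4a5 (0.67, interval -0.02 to 1.37) and Col4a6 (0.33, interval -0.01 to 0.67) did not pass. With the probe sets of each gene averaged, 2 of these did pass late against day 0. Col4a5 was 1.28 higher (adjusted p = 0.0176) and Col4a6 0.45 higher (adjusted p = 0.0327). Of 8 endothelial markers, 5 rose late against day 1 (28.9% of all genes) and 0 fell (22.8%), with 5 and 0 by limma at an unadjusted p under 0.05. Their part in the result was not tested.

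**Figure D4:**
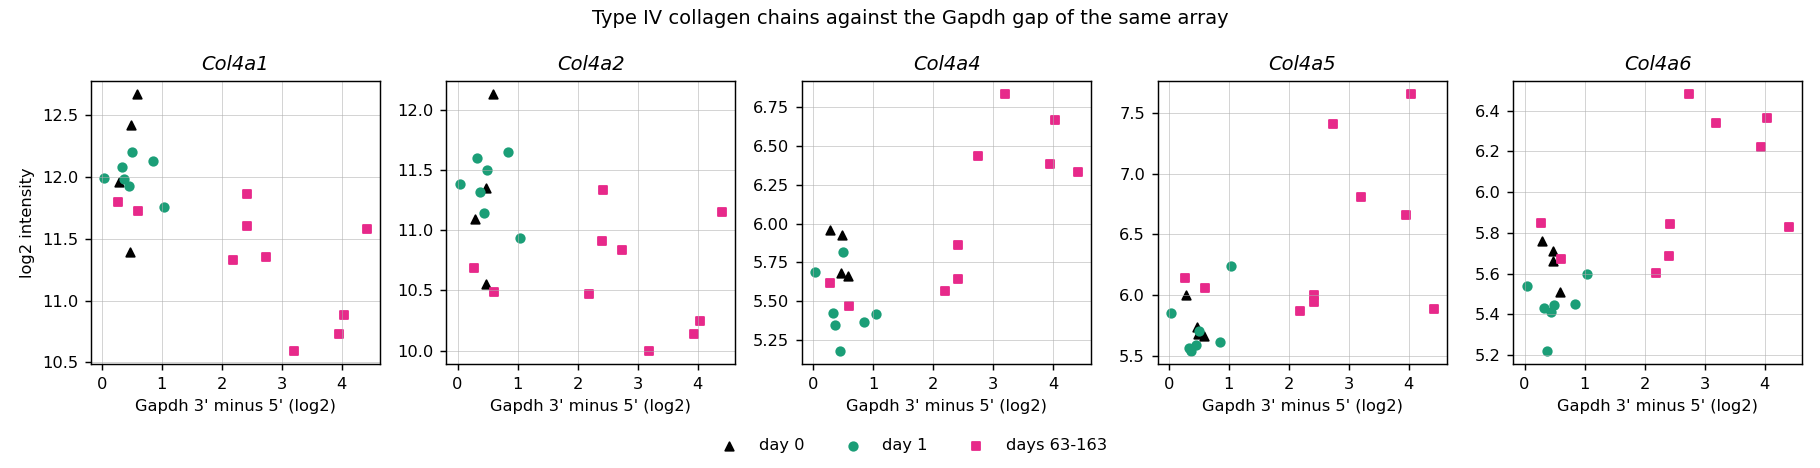
Log2 intensity of 5 type IV collagen chains against the Gapdh 3′ minus 5′ gap of the same array, for day 0 (triangles), day 1 (circles) and late tumours (squares). Late tumours with a gap over 2 reach the highest Col4a4, Col4a5 and Col4a6 values and the lowest Col4a1 and Col4a2 values.

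Type VI collagen forms beaded filaments around cells from Col6a1, Col6a2 and one larger chain, mostly Col6a3. Col6a1 was 12.53, 11.62, 12.10 and 11.93 at day 0, 11.81 to 12.85 (median 12.29) at day 1, and 12.03, 11.88, 11.48, 11.56 and 11.70 at day 2. At day 3 it was 11.06 to 12.18 (median 12.14), at day 6 12.12, 13.01, 12.04 and 11.34, at day 9 12.79, 12.07 and 12.21, at day 16 12.07 and at day 29 12.45. Late values were 10.98 to 12.52 (median 11.71), spread across the day 0 range. Late against day 1, Col6a1 fell by 0.61 (SE 0.21, adjusted p = 0.0135) and Col6a2 fell by 0.61 (SE 0.21, adjusted p = 0.0166), while against day 0 neither passed (-0.33 and -0.30). With the late tumours limited to days 121 to 163, they were -0.49 (adjusted p = 0.134) and -0.49 (adjusted p = 0.151) against day 1.

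Col6a3 was 12.85, 12.42, 12.46 and 12.73 at day 0 and 9.94 to 12.08 (median 11.10) late, with no late tumour reaching day 0. It fell by 1.55 late against day 0 (SE 0.32, adjusted p = 1.72e-04) and by 0.75 late against day 1 (SE 0.26, adjusted p = 0.0176), the latter -0.66 with the block (adjusted p = 0.0594). At days 1, 2 and 3 the differences of -0.80 (adjusted p = 0.107), -1.01 (adjusted p = 0.0526) and -0.86 did not pass. The late fall of Col6a3 was -1.97 with the Gapdh gap as a covariate (adjusted p = 5.99e-04), and within set 3 alone it was -1.60 (adjusted p = 0.0531).

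Col8a1 and Col8a2 make type VIII collagen, a short-chain network of vessel walls and of the corneal basement layer. Col8a1 was 11.01, 10.81, 11.34 and 10.90 at day 0, 9.40 to 11.65 (median 10.79) at day 1 and 10.64, 10.03, 9.82, 9.67 and 9.72 at day 2. At day 3 it was 9.09 to 9.87 (median 9.50), and days 2, 3 and 6 all lay wholly below day 0. At day 6 it was 10.18, 10.06, 9.88 and 9.35, at day 9 10.15, 10.66 and 10.86, at day 16 9.75 and at day 29 7.90. The late tumours were 7.36 to 10.34 (median 9.56), also wholly below day 0. Col8a1 fell by 1.50 at day 3 (SE 0.38, adjusted p = 0.0053), by 1.64 late (SE 0.35, 3.12-fold, adjusted p = 2.61e-04) and by 1.31 late against day 1 (SE 0.29, adjusted p = 3.69e-04). Its other 2 probe sets fell late as well, by 0.95 and 2.53. Both late calls kept their side of the threshold in every alternative and with each tumour left out.

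Col8a2 was 4.81, 5.14, 5.12 and 5.13 at day 0 and 5.02 to 7.66 (median 6.88) late. Only the late tumour of day 136, at 5.02, overlapped day 0. Col8a2 lay above the filter's percentile in 0 of 4 day 0, 4 of 7 day 1 and 9 of 10 late tumours, so its day 0 level is near background. Col8a2 rose by 1.72 late (SE 0.40, adjusted p = 6.16e-04) and by 0.90 late against day 1 (SE 0.33, adjusted p = 0.0227). With the block the first was 1.29 (adjusted p = 0.094), and with the Gapdh gap as a covariate they were 1.12 (adjusted p = 0.093) and 0.30 (adjusted p = 0.647). Col10a1, the chain of growing cartilage, was called in no comparison.

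Col7a1 makes the anchoring fibrils of skin and is secreted by keratinocytes and fibroblasts. It was 11.74, 10.00, 9.72 and 11.59 at day 0, 8.13 to 10.19 (median 9.33) at day 1 and 8.58, 9.27, 9.86, 9.23 and 8.84 at day 2. At day 3 it was 8.74 to 9.67 (median 9.36), at day 6 9.22, 9.87, 9.47 and 9.08, and at day 9 10.46, 9.84 and 9.57. It was 10.50 at day 16, 9.83 at day 29 and 7.69 to 9.57 (median 8.89) late. The day 0 tumours split into 2 high and 2 lower values, and the late and day 3 tumours lay below all 4. Col7a1 fell by 1.52 at day 1 (SE 0.37, adjusted p = 0.00589), 1.61 at day 2 (SE 0.40, adjusted p = 0.00639), 1.52 at day 3 (SE 0.38, adjusted p = 0.00502), 1.35 at day 6 (SE 0.42, adjusted p = 0.0294) and 1.99 late (SE 0.35, 3.98-fold, adjusted p = 2.6e-05), and was -0.80 at day 9 (interval -1.72 to 0.11, adjusted p = 0.306). Without the fourth day 0 tumour the day 1 difference was -1.24 (adjusted p = 0.0557), and the day 6 call was lost on leaving out each of 5 of the 8 tumours in turn. With the block it was -1.81 at day 1 (adjusted p = 0.0477) and -2.13 late (adjusted p = 0.00253). Within set 3 alone the same 2 late tumours gave -2.13 (adjusted p = 0.0679). Keratinocyte markers varied widely, with a list mean of 5.71 to 8.86 at day 0 and 5.75 to 11.69 late, where 2 of 7 rose (26.3% of all genes) and 0 fell (20.1%), with 5 higher and 0 lower by limma at an unadjusted p under 0.05. Their part in these values was not tested.

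Of the transmembrane collagens, Col13a1, found at cell adhesions and neuromuscular junctions, was 7.85, 6.86, 6.61 and 7.65 at day 0 and 5.73 to 6.95 (median 6.09) at day 1. It fell by 0.99 at day 1 (SE 0.26, adjusted p = 0.0108), 0.96 at day 2, 0.92 at day 3 and 0.68 late (SE 0.25, adjusted p = 0.0239). Without the first day 0 tumour it was -0.79 at day 1 (adjusted p = 0.0686) and -0.48 late (adjusted p = 0.155), and with the block -0.47 (adjusted p = 0.486) and -0.19 (adjusted p = 0.718). Col23a1, a chain of epithelial and some tumour cells, was 8.41 to 9.87 (median 8.96) at day 1 and 7.92 to 9.14 (median 8.53) late. It fell by 0.70 late against day 1 (SE 0.18, adjusted p = 0.00149), a call that kept its side of the threshold in every alternative and with each tumour left out. Against day 0 its late difference was -0.25 (adjusted p = 0.355), while another probe set of the gene fell by 2.12 (adjusted p = 1.68e-06). Col25a1, a neuronal chain, fell by 0.27 late (SE 0.09, adjusted p = 0.0111), and with the block was -0.28 (adjusted p = 0.0974). Col17a1, the hemidesmosome collagen of keratinocytes, differed by 0.78 late (interval -0.62 to 2.18, adjusted p = 0.364), with day 0 tumours from 5.17 to 9.23.

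The multiplexins carry heparan or chondroitin sulphate in basement membrane zones, and Col18a1 is the source of the endostatin fragment. Col18a1 was 12.55, 12.05, 12.35 and 12.69 at day 0, and 11.11, 11.02, 11.21, 12.13 and 11.33 at day 2. Its late values were 10.20 to 12.40 (median 11.62). It fell by 1.05 at day 2 (SE 0.28, adjusted p = 0.0116) and by 0.87 late (SE 0.25, adjusted p = 0.00496), the latter -0.67 with the Gapdh gap as a covariate (adjusted p = 0.124). Col15a1 was 0.93 higher late (interval 0.07 to 1.79, adjusted p = 0.0688), and without the day 136 tumour it was 1.03 higher (adjusted p = 0.0469). Col26a1, which belongs to no class here, rose by 0.48 late (SE 0.18, adjusted p = 0.0241), with a block value of -0.07 (adjusted p = 0.857). It lay above the filter's percentile in 0 of 4 day 0, 0 of 7 day 1 and 3 of 10 late tumours.

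The 3 broad classes were set side by side as means per tumour. The fibrillar mean per tumour, taken over 9 genes and relative to the day 0 mean, was -0.94 to -0.34 (median -0.62) at day 2, below all 4 day 0 tumours at -0.26 to 0.47. Day 2 lies wholly in spike-in set 1 and day 0 in set 3, so day and set cannot be told apart in these means. The basement membrane mean over 5 genes was -0.67 to -0.02 at day 2 against -0.31 to 0.20 at day 0, and the mean over the 22 other genes -0.32 to -0.11 against -0.24 to 0.12. Late, the fibrillar mean was -1.16 to 0.17 (median -0.34), the basement membrane mean -0.36 to 0.38 (median -0.06) and the other mean -0.61 to 0.42 (median 0.01). These ranges overlap day 0 in all 3 classes. Late against day 0, 2 of 9 fibrillar genes fell, 2 of 5 basement membrane genes fell, and 4 of 22 others rose and 7 fell. Of all genes tested, 26.3% rose and 20.1% fell in that comparison. The medians of the 3 classes were -0.11, 0.27 and -0.04 beside 0.05 over all genes.

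**Figure D5:**
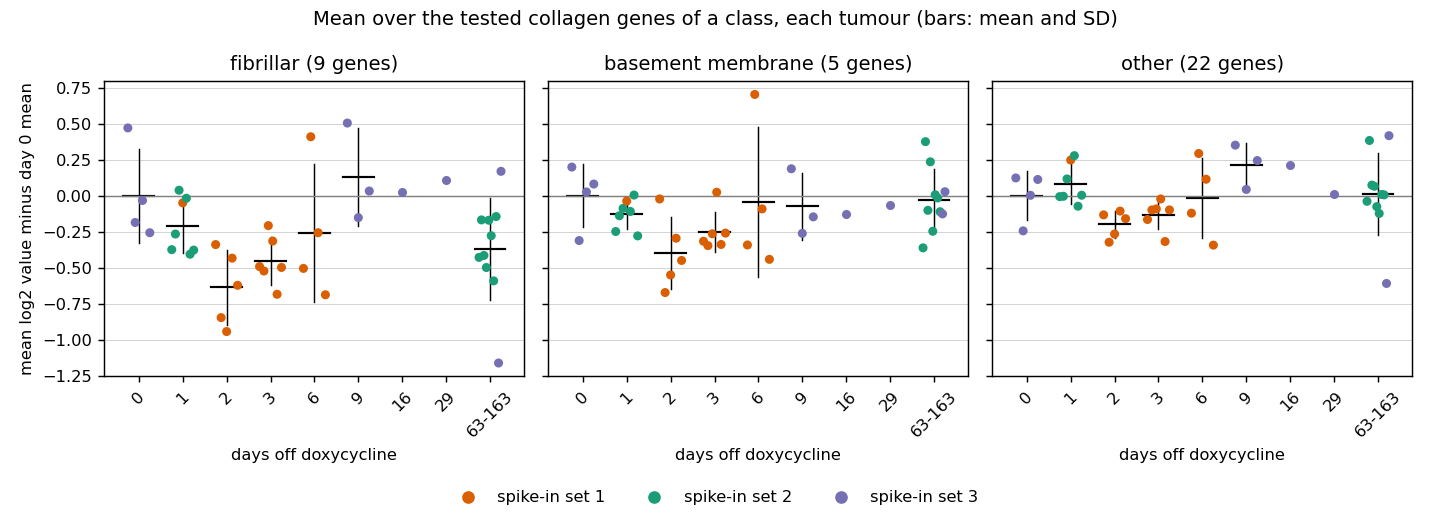
Mean log2 value over the tested genes of each broad class in each tumour, minus the day 0 mean (points coloured by spike-in set, with the mean and SD of each group of more than 1), against days off doxycycline. The fibrillar mean lies at -0.94 to -0.34 at day 2, all of set 1 while day 0 is all of set 3. The late tumour of day 136 lies at -1.16.

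A direct comparison of the leading chains of both classes did not pass the test. The change of Col1a1 from day 0 minus that of Col4a1 was 0.17 (SE 0.53) at day 1, -0.10 (SE 0.53) at day 2, 0.24 (SE 0.53) at day 3, 0.51 (SE 0.59) at day 6, 0.27 (SE 0.59) at day 9 and 0.27 (SE 0.55) late. By two-sided exact permutation tests over tumours the p-values were 0.667, 0.889, 0.667, 0.486, 0.857 and 0.601, and the adjusted value over the 6 was 0.889 for each. Leaving out 1 tumour gave -0.32 to 0.46 at day 1, -0.59 to 0.19 at day 2, -0.25 to 0.52 at day 3, 0.02 to 0.80 at day 6, -0.22 to 0.56 at day 9 and -0.22 to 0.56 late, so the sign turned in 5 of the 6.

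Several pairs of chains varied together between tumours of 1 group, and the part of shared cell content in this was not tested. Over 39 tumours, with each group's mean removed, Col6a1 and Col6a2 had Pearson's r = 0.99 (Spearman's rho 0.97, and 0.98 without the 2 tumours farthest from the median). Col1a1 and Col1a2 had r = 0.89 (rho 0.91, 0.88 without 2), Col4a1 and Col4a2 r = 0.89 (rho 0.90, 0.86 without 2), Col1a1 and Col3a1 r = 0.84 (rho 0.82, 0.75 without 2), and Col5a1 and Col5a2 r = 0.74 (rho 0.73, 0.68 without 2). For these 5 of 9 pairs the permutation p of r and of rho was 1e-05, the smallest that 100000 permutations can give (adjusted 1.8e-05 over the 9). Within the spike-in sets, Col6a1 and Col6a2 had 1.00, 0.98 and 0.99, Col1a1 and Col1a2 0.92, 0.88 and 0.94, and Col4a1 and Col4a2 0.91, 0.82 and 0.95, whereas Col5a1 and Col5a2 had 0.86, 0.35 and 0.90. By RefSeq order Col4a1 and Col4a2 overlap, and Col6a1 and Col6a2 are neighbours, as are Col3a1 and Col5a2.

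Weaker pairs were Col8a1 and Col8a2, with r = 0.65 (rho 0.49, 0.48 without 2; permutation p = 9e-05, adjusted 1.35e-04; rho adjusted p = 0.00592), and Col6a1 and Col6a3, with r = 0.54 (rho 0.42, 0.39 without 2; permutation p = 0.0044, adjusted 0.00566; rho adjusted p = 0.019). Col8a1 and Col8a2 thus varied in the same direction within groups, although their late differences from day 0 had opposite signs. They had r of 0.43, 0.75 and 0.75 within the sets. Col1a1 and Col4a1 had r = 0.34 (permutation p = 0.0946, adjusted 0.0946; rho 0.47, adjusted p = 0.0126; 0.56 without 2), with 0.65, 0.58 and 0.13 within the sets. Col1a1 and Col17a1, a keratinocyte chain, had r = -0.36 (permutation p = 0.0563, adjusted 0.0633; rho -0.32, adjusted p = 0.0708; -0.18 without 2).

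The counts for genes that make and handle collagen stand beside 26.3% of all genes that rose and 20.1% that fell late against day 0. Neither these genes nor the marker lists were looked at in the fits with the spike-in set or the Gapdh gap. Late against day 0, 46.4% of all genes were called, but 30.1% with the set as a block and 24.2% with the gap as a covariate. Of 19 genes for collagen synthesis in the endoplasmic reticulum, 1 rose and 11 fell late against day 0, with a median of -0.51 beside 0.05 over all genes. The prolyl and lysyl hydroxylases led: P4ha1 fell by 1.96 (adjusted p = 2.99e-07), P3h1 by 1.58 (adjusted p = 3.85e-06), Plod2 by 1.30 (adjusted p = 1.64e-05) and Plod1 by 1.28 (adjusted p = 1.59e-06). Of 11 tested genes for collagen processing and cross-linking, 2 rose and 3 fell late, among them Adamts3, a procollagen protease, which rose by 0.93, and the lysyl oxidase Loxl3, which fell by 1.70. Of 13 fibril regulators, 8 rose and 2 fell late: the small proteoglycan Ogn rose by 3.72, dermatopontin (Dpt) by 4.15 and tenascin X (Tnxb) by 1.77, and fibronectin (Fn1) fell by 1.53. Of 8 tested collagen receptors, 1 rose and 3 fell late, with the integrin chain Itgb1 down by 1.10 (adjusted p = 1.81e-04). Of 10 TGF-beta pathway genes, 2 rose and 4 fell, with Tgfb1 down by 1.80 (adjusted p = 2.51e-05).

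Of 12 fibroblast markers tested, 4 rose (26.3% of all genes) and 3 fell (20.1%) late against day 0: Mfap5 rose by 2.54 and Pi16 by 2.34, while Fbln2 fell by 2.45 and Twist2 by 1.46. At day 1, 4 rose (7.57%) and 1 fell (6.25%). The mean over the 13 found was 9.04 to 9.27 at day 0, 9.23 to 9.97 at day 1 and 8.95 to 9.70 late. Of 8 macrophage markers, 5 rose at day 1 (7.57%), 5 at day 2 (6.74%), 5 at day 3 (9.74%) and 5 at day 6 (5.74%), and 0 fell. By limma at an unadjusted p under 0.05, 6, 7, 6 and 7 were higher and 0 lower. The list had a mean of 9.06 to 10.28 at day 0 and 10.64 to 11.23 at day 1, and 9.26 to 10.44 late. Late against day 0, 3 of 7 tested mural markers rose and 1 fell, and among the others 3 of 8 endothelial, 3 of 8 melanocytic, 3 of 6 muscle, 1 of 3 adipocyte and 1 of 5 cartilage and bone markers rose. Of these 5 lists 0 genes fell, with 1 cartilage and bone marker lower by limma at an unadjusted p under 0.05. The part of these markers in the collagen values was not tested.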

How the data were processed

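RNA of 41 tumours was measured on Affymetrix mouse arrays. The deposited values are linear intensities per probe set, and per the submitters' processing notes RMA and MAS5 were used; which of them made these values is not given in the sources used here. Of 45101 probe sets, 34958 name 1 gene, 932 several and 9211 none, by the platform annotation. Intensities were quantile normalised as log2(value + 16), and fold changes on this scale understate those of dim genes. Genes above the 40th percentile in at least 3 arrays were tested with limma 3.58.1 in R 4.3.3, with 1 mean per group and Benjamini-Hochberg adjustment over 14319 genes. Single values were compared by exact permutation tests in scipy 1.17.1. The text describes Col1a1, Col3a1, Col4a1, Col6a1, the gene of lowest F test p in each class, and called genes. The members, gene and marker lists, motifs and limits for the spike-in sets and the Gapdh gap were chosen with earlier results of these data known. On simulated data, limma recovered 77.5% of 200 genes changed 2-fold at day 2 and 84% in the late tumours, of 14319. These data had independent normal noise of 1 spread per gene and no effect of spike-in set or Gapdh gap. Recovery in the tumours themselves may therefore differ. Alternatives changed the normalisation, pseudocount, filter, probe set rule, model and tumours.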

Additional observations from a re-analysis of the deposited data

Results flagged for a closer look

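Among 90 sets of values (a gene or class mean in a group of 4 to 10 tumours), 7 held a tumour far from the others of its group, and chance gives such a tumour in about 1 of 20 sets. The late tumour of day 136 was the lowest late tumour in 4 of them, with Col11a1 at 4.72, Col3a1 at 12.95, Col8a1 at 7.36 and the mean over the 22 other collagens at 7.81. Without it the late difference from day 0 was -1.81 for Col11a1 and -1.42 for Col8a1. A day 2 tumour had Col18a1 at 12.13, above the rest of its group, and a day 0 tumour had Col23a1 at 8.32, below the rest. A day 3 tumour had a basement membrane mean of 8.15, above the rest. Col20a1 was 11.27 in the single tumour of day 16 and 11.39 in that of day 29, which entered no comparison, against at most 7.53 at day 0. Col20a1 was looked at in these tumours after its values were seen.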

How the results depend on the processing

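Of 200 differences not called, 33 passed in some alternative or with 1 tumour left out. Of 52 calls of collagen genes in the 7 comparisons, 7 held under every alternative and 6 of these also with each tumour left out: Col20a1 at day 1 and late, Col11a1 late, Col8a1 late against day 0 and against day 1, and Col23a1 late against day 1. Fits limited to 1 spike-in set or to part of the late tumours applied to some comparisons only, so calls faced unequal numbers of alternatives. Late against day 0, the block and the set 3 fits give the same difference. Percentages here are shares of all genes called in the same fit. The spike-in set as a block left 3 calls at day 1 (11.5%), 0 at each of days 2, 3 and 6 (0.552%, 0.936% and 0.489%) and 8 late against day 0 (30.1%). At days 2, 3 and 6, 5 each passed by limma at an unadjusted p under 0.05. The block turned Col26a1 late to -0.067 (adjusted p = 0.857). Without tumours of Gapdh gap over 2 there were 12 calls at day 3 (27.2%), 4 at day 6 (18.5%), 0 at day 9 (0.171%) and 6 late against day 1 (26.3%). At day 9, 2 passed by limma at an unadjusted p under 0.05. Late against day 1, Col12a1 turned to 0.28 (adjusted p = 0.7). The Gapdh gap as a covariate left 8 late against day 0 (24.2%) and 8 against day 1 (25.7%). Set 3 alone left 0 at day 9 (0.00729%) and 4 late (17%), with 1 at day 9 by limma at an unadjusted p under 0.05. The compared groups alone left 0 at day 9 (2 by limma at an unadjusted p under 0.05), where no gene of any kind was called. Late tumours of days 121 to 163 left 8 against day 1 (35.5%). Averaging the probe sets of each gene, the correlation was 0.47 for Col1a1 and Col4a1 (adjusted p = 0.0124) and -0.38 for Col1a1 and Col17a1 (adjusted p = 0.0261). The cause of these changes was not tested. Leaving out 1 tumour gave 1 to 5 calls at day 1 (lowest without the fourth day 0 tumour), 3 to 10 at day 2 (lowest without the first), 3 to 8 at day 3 (without the first or the fourth), 0 to 4 at day 6 (0 without the first or the fourth, or without any of the first, the third and the fourth day 6 tumour), 0 to 2 at day 9 (lowest without the third day 9 tumour), 10 to 17 late against day 0 (lowest without the first day 0 tumour) and 11 to 15 against day 1. No paired analysis was possible because the labels number no replicates and accession order pairs nothing. Array number and the spread at day 0, with 4 tumours, limit what could be detected.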
